A study of Acipenser sinensis with 45 samples.

Results

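Gene expression in the pituitary (UP) was compared with gene expression in the gonad (UG) of 6 Chinese sturgeon (Acipenser sinensis) in stage I of gonadal development. The comparison takes every pituitary and every gonad library of these fish, which makes 12 of the 45 libraries of the series, with 6 in each tissue. The fish were 1 year old and came from an artificially bred population, their sex was not determined, and no treatment was given to either group. Both tissues were taken from each fish, and libraries that share a number come from the same fish. The series also holds the hypothalamus of these fish (UH) and the same 3 tissues of males and females in stage II, over 4 years old, and those libraries are used below to read the stage I differences in independent fish. For the males this gave 5 pituitary (MP) and 6 gonad (MG) libraries, because the tissue labels of 1 male pituitary library conflict and it was left out, and for the females 3 of each (FP and FG).

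The pituitary is the gland in which hypothalamic releasing hormones are turned into circulating signals. Its anterior cells make peptide hormones in very large amounts, among them growth hormone, prolactin and the gonadotropins, and the gonadotropins drive growth and steroid synthesis in the gonad. The gonad answers with sex steroids that feed back on the pituitary and brain. In stage I the sturgeon gonad holds germ cells and supporting cells that have not formed a recognisable testis or ovary, which is why the sex of these fish cannot be read from sections.

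Expression was given as FPKM, fragments of a unigene scaled to its length and to the mapped fragments of the library, for 121952 unigenes assembled without a genome from the reads of all libraries. A unigene is an assembled transcript, and unigenes of similar sequence are contigs of a cluster. Unigenes carry no gene names in the files used here, so groups of unigenes are described by where they are expressed, and 4 are named by their identifiers. Levels in a bulk tissue were measured, so fewer cells of a type and less RNA per cell cannot be told apart.

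The 6 pituitary libraries were alike and the 6 gonad libraries were not. The distance of 2 libraries was taken as 1 minus Pearson's r across unigenes on the log2(FPKM + 1) scale. Its mean was 0.0762 over the 15 pairs of UP libraries (0.0598 to 0.0921) and 0.163 over the 15 pairs of UG libraries (0.0948 to 0.211). Between the tissues it was 0.352, with a lowest value of 0.315, so every gonad library lay nearer to every other gonad library than to any pituitary library. The gonads of fish 2, 3 and 5 were the closest to each other, with distances of 0.0948 to 0.118, while those of fish 1, 4 and 6 lay at 0.15 or more from every other gonad. The SD over the 6 fish was larger in UG than in UP for 79.9% of 77877 unigenes, with a median SD of 0.51 in UG and 0.31 in UP on the log2 scale. The relative depth read from the lowest values was 0.951 to 1.07 in 11 libraries and 0.807 in UG replicate 1, and the number of unigenes listed at 0 was 26345 in that library, against 11519 to 19928 in the other gonads and 9796 to 11036 in the pituitaries. The part of depth in the spread of the gonads was not tested.

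By FPKM as given, the stage I pituitary expressed more unigenes than the gonad. At 1 FPKM or more, the pituitaries of fish 1 to 6 held 76226, 77289, 78518, 78252, 76432 and 78856 unigenes, and the gonads of the same fish held 60651, 73873, 64347, 60543, 71867 and 59271. The groups did not overlap, and the gonad was lower in 6 of 6 fish. The means were 77596 ± 1113 in UP and 65092 ± 6291 in UG (SD, n = 6), and the difference had an adjusted p of 0.00433 in an exact permutation test over the libraries (2-sided, adjusted over 6 library measures). Pairing the libraries by fish gave p = 0.03125 in an exact sign permutation test, the smallest p that 6 fish allow, and 0.0625 after adjustment. At 10 FPKM or more the means were 11649 ± 476 and 9815 ± 1397 (SD, n = 6), with an adjusted exact p of 0.0234, and the gonad was lower in 5 of 6 fish. Paired by fish, the exact sign permutation test gave p = 0.09375 (0.1125 after adjustment). Counts at a threshold were not repeated after the median-of-ratios scaling described below. Its factors, by which FPKM is divided, were 1.09 to 1.17 in UP. In UG they were 1.06 in fish 2 and 5 and 0.801 to 0.821 in the other gonads. The part of scale in the difference of counts was not tested.

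At the top of the range the order was reversed. Unigenes at 100 FPKM or more numbered 398 ± 16.8 in UP and 446 ± 42.7 in UG (SD, n = 6; adjusted exact permutation p = 0.0234), and the gonad held more in 5 of 6 fish, although the paired exact sign test gave p = 0.0625 (0.09375 after adjustment). The 100 most abundant unigenes of each library took up 23.8%, 22.6%, 20.5%, 19.4%, 22.4% and 21.3% of the summed FPKM in the pituitaries of fish 1 to 6, and 41.2%, 29.2%, 40.01%, 33.9%, 28.4% and 39.1% in the gonads. No pituitary reached the lowest gonad, and the mean share was 21.7% ± 1.60 in UP and 35.3% ± 5.63 in UG (SD, n = 6; adjusted exact permutation p = 0.00433, paired exact p = 0.03125 and 0.0625 after adjustment). For the 10 most abundant unigenes the shares were 10.4% ± 0.855 and 12.9% ± 2.93 (SD, n = 6), and the exact permutation test gave p = 0.0996. The gonads of fish 2 and 5 had the most expressed unigenes and the lowest shares of the 100 most abundant ones among the 6 gonads.

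**Figure D1:**
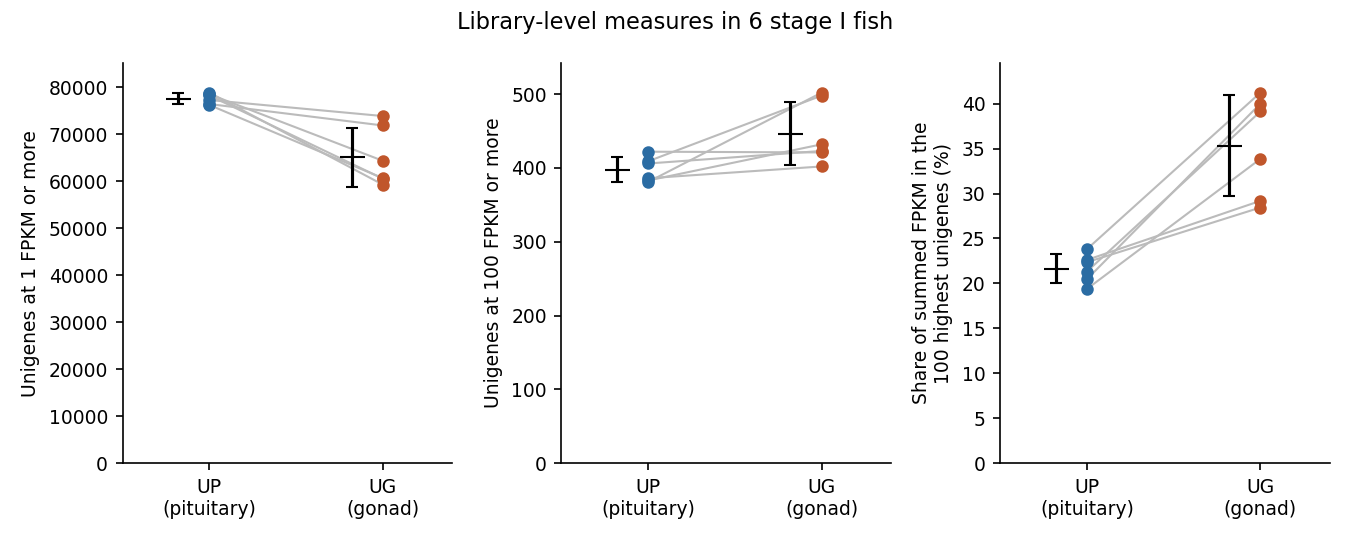
Number of unigenes at 1 FPKM or more (left), at 100 FPKM or more (middle) and the percentage of summed FPKM in the 100 highest unigenes (right) in the pituitary (UP, blue) and gonad (UG, orange) of 6 stage I fish. Each point is a library, grey lines join the tissues of a fish, and black bars show the mean and SD (n = 6). Every gonad lies below every pituitary on the left, with means of 65092 and 77596, and above every pituitary on the right, with means of 35.3% and 21.7%.

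The tissues differed in a large part of the unigenes tested. With limma on log2(FPKM + 1), 35491 of 77877 unigenes (45.6%) had an adjusted p under 0.05. Of these, 8793 were higher in the gonad (11.3% of those tested) and 26698 were higher in the pituitary (34.3%). With the fish as a block, which compares the tissues within each fish, 36760 unigenes (47.2%) were called, 9315 higher in the gonad and 27445 higher in the pituitary. The fits shared 34454 calls, 97.1% of the unpaired calls and 93.7% of the paired ones, and 0 unigenes were called in opposite directions. The median SE of a fold change was 0.26 without the block and 0.24 with it on the log2 scale.

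The fold changes were spread over a wide range. A log2 fold change of 1 or more separated 5657 unigenes higher in the gonad and 17062 higher in the pituitary. At 3 or more there were 494 and 1359, at 5 or more 50 and 153, and at 8 or more 1 and 24. Of the 35491 called unigenes, 29371 (82.8%) had the same sign in all 6 fish, as had 41.5% of all unigenes tested. The calls were made on these fish, so this is a description. For 4338 of those higher in the gonad and 15754 of those higher in the pituitary, the 12 libraries did not overlap between the tissues. Over all unigenes tested, every gonad library was above every pituitary library for 5.6% and the reverse held for 20.3%.

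**Figure D2:**
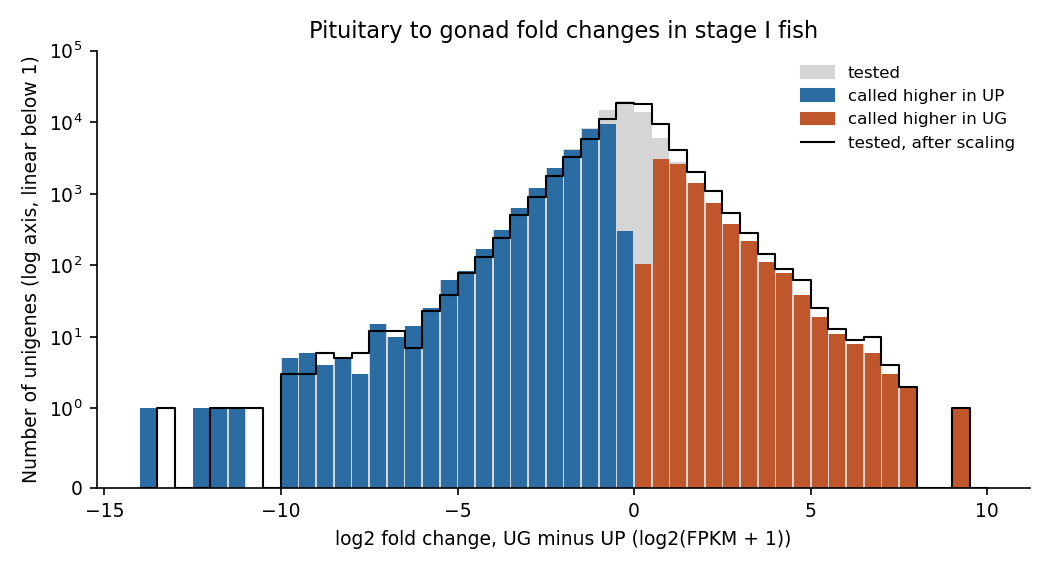
Number of unigenes (log axis, linear below 1) by log2 fold change, UG minus UP, on the log2(FPKM + 1) scale in steps of 0.5. Grey bars are the 77877 unigenes tested, blue bars the 26698 called higher in UP, orange bars the 8793 called higher in UG, and the black line gives the unigenes tested after median-of-ratios scaling. The left tail reaches a fold change of -13.55, the right tail one of 9.04, and scaling moves the middle of the distribution towards 0.

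The excess of calls towards the pituitary depended on how the libraries were brought to a common scale. FPKM values are shares of a library, and the median fold change over all unigenes tested was -0.33 on the log2 scale. After median-of-ratios scaling, which sets the typical unigene of each library to the same level, the median was -0.08. The number of calls was then 32688 (42% of those tested), of which 13328 were higher in the gonad (17.1% of those tested) and 19360 in the pituitary (24.9%), so that the share of calls towards the gonad moved from 24.8% to 40.8%. All 8793 unigenes higher in the gonad were called that way again, 19360 of the 26698 higher in the pituitary were, and 0 changed direction. Every UP factor (1.09 to 1.17) was above every UG factor (0.801 to 1.06), so the repeat of the gonad calls was favoured in advance. With the fish as a block and the scaling together, 14155 were higher in the gonad and 20083 in the pituitary.

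The calls leaned to the gonad only among the most abundant unigenes. Among unigenes with a mean under 2 FPKM over the 12 libraries, 8.48% were higher in the gonad and 32.0% higher in the pituitary. The shares were 11.3% and 35.1% for the 48650 unigenes from 2 to 10 FPKM. From 10 to 100 FPKM they were 16.4% and 35.3% for 8497 unigenes, but nearly even after scaling, at 24.9% and 25.4%. The scaled shares were 12.5% and 23.4% under 2 FPKM, and 17.4% and 25.4% from 2 to 10 FPKM. Among the 381 unigenes with a mean of 100 FPKM or more, 44.9% were higher in the gonad and 25.2% higher in the pituitary, and the same order was found after scaling (49.3% and 19.2%). Of the 100 most abundant unigenes of the gonad, 90 were called higher in the gonad and 1 higher in the pituitary. Of the 100 most abundant unigenes of the pituitary, 58 were likewise higher in the gonad and 29 higher in the pituitary, and the 2 sets of 100 shared 67 unigenes. The shares over all unigenes tested were 11.3% higher in the gonad and 34.3% higher in the pituitary. Each set of 100 was chosen by values that also make the calls, so its counts are descriptions. As a description, the 8793 unigenes called higher in the gonad took up 45.3% to 57.0% of the summed FPKM of the gonad libraries and 15.6% to 19.4% of that of the pituitary libraries. The 26698 called higher in the pituitary took up 40.5% to 43.3% in the pituitary and 8.16% to 11.2% in the gonad.

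The most strongly pituitary-enriched unigene was Unigene9682_All. Its levels in the pituitaries of fish 1 to 6 were 17725, 23659, 14757, 17147, 27501 and 14657 FPKM. In the gonads of these fish they were 0.63, 1.99, 0.316, 0.589 and 0.435 FPKM, and it was listed at 0 in fish 6. No gonad came near the lowest pituitary. The log2 fold change was -13.55 with an SE of 0.25 (limma adjusted p = 6.05e-15 unpaired and 2.31e-11 with the fish as a block). The mean was 28768 ± 6974 FPKM in MP (SD, n = 5) and 6870 ± 2704 FPKM in FP (SD, n = 3), and 17.1 ± 20.8 FPKM in the hypothalamus of the stage I fish (SD, n = 6). In the gonads of stage II males it ranged from 0.908 to 237 FPKM, and there the log2 fold change was -10.40.

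The most strongly gonad-enriched unigene was Unigene52431_All. Its levels in the gonads of fish 1 to 6 were 644, 952, 1813, 2582, 850 and 787 FPKM, and in the pituitaries 0.544, 1.14, 1.85, 1.16, 0.820 and 1.498 FPKM. The gonads of fish 3 and 4 held the most, and the lowest gonad was far above the highest pituitary. The log2 fold change was 9.04 with an SE of 0.31 (limma adjusted p = 8.36e-12 unpaired and 1.24e-09 with the fish as a block). In stage II it was highest in the male gonad, with 474 ± 277 FPKM in MG (SD, n = 6), against 7.54 ± 2.79 FPKM in FG (SD, n = 3) and 4.41 ± 3.66 FPKM in FP (SD, n = 3). There the log2 fold change, MG minus MP, was 6.75.

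Some unigenes were listed at 0 throughout one tissue. Of those listed at 0 in all 6 pituitaries, 91 were at 1 FPKM or more in all 6 gonads, with a median level of 9.95 FPKM and a highest mean of 121 FPKM. All 91 averaged at least 1 FPKM in the gonads of stage II males, 0 had one in the male pituitary, and 17 had one in the female gonad. Over all unigenes tested the shares with such a mean were 88.0%, 88.8% and 39.6%. Of those listed at 0 in all 6 gonads, 309 were at 1 FPKM or more in all 6 pituitaries, with a median of 5.32 FPKM and a highest mean of 420 FPKM. Of these, 288 reached a mean of 1 FPKM in the male pituitary, 180 in the female pituitary, 190 in the hypothalamus of the stage I fish and 2 in the male gonad, where 88.8%, 71.8%, 86.9% and 88.0% of all unigenes tested did. Since RSEM estimates can be 0 for a transcript that is present, these are counts of listed values.

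Of the unigenes called higher in the pituitary, 90.3% had a UH mean of 1 FPKM or more, as had 86.9% of all unigenes tested. The larger the fold change, the lower was the hypothalamic level relative to the pituitary. The median UH level was 75.9% of the UP level over the 26698 unigenes called higher in the pituitary, 47.2% over the 1359 with a log2 fold change of -3 or less, and 11.6% over the 153 with one of -5 or less. Of these 153, 81.0% had a UH mean of 1 FPKM or more, against 86.9% of all unigenes tested. The median of their UH means was 11.1 FPKM. For the gonad the median UH level was 20.6% of the UG level over the 5657 unigenes with a log2 fold change of 1 or more, and 0.344% over the 50 with one of 5 or more. These ratios are descriptions, because the same UP and UG values chose the unigenes.

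Lists of unigenes set by tissue in the stage II fish gave a check of the tissue labels that used no stage I value. For each list a tissue was set against other libraries. A list holds the unigenes whose lowest library in the tissue was at 10 FPKM or more and at least 10 times the highest of those. The pituitary, hypothalamus and gonad lists were set against the other tissues of both sexes. The testis list took the male gonad against the female gonad and the male hypothalamus and pituitary. The ovary list took the female gonad against the male gonad, hypothalamus and pituitary. Female hypothalamus and pituitary were thus not used for the testis and ovary lists. No unigene is in more than 1 list. The pituitary list had 66 members and all 66 were called higher in UP, where 34.3% of all unigenes tested were, with a median log2 fold change of -5.09 against -0.33 over all unigenes. The median level of its members was 51.9, 38.6, 43.2, 45.9, 40.6 and 51.7 FPKM in the pituitaries of fish 1 to 6. In the gonads it was 0.0358, 0.214, 0, 0.0652, 0.136 and 0.0519 FPKM. The summed level of the list in the gonad was 0.0403% to 0.189% of that in the pituitary of the same fish.

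The hypothalamus list, with 35 members, stood at a median of 43.5 to 64.1 FPKM in UH, 0.825 to 1.78 FPKM in UP and 0 to 0.210 FPKM in UG. Without a filter on low values, 24 of the 35 were called higher in UP and 2 higher in UG, where 28.9% and 10.1% of all unigenes were. The pituitary thus held these transcripts at a small part of their hypothalamic level, and the gonad at less. The part of adjoining hypothalamic tissue in this difference was not tested.

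The gonad list held 24 unigenes that were restricted to the gonads of both sexes in stage II, where the median level was 35.0 to 53.7 FPKM in males and 40.3 to 50.9 FPKM in females. In UG the median was 13.8, 28.2, 14.4, 0.981, 25.6 and 5.22 FPKM in fish 1 to 6, and in UP it was 0.133 to 0.323 FPKM. The gonads of fish 2 and 5 were the highest, those of fish 4 and 6 were the lowest, and by this median all 6 lay below every gonad library of stage II. The list was set by high levels in stage II, which favoured lower stage I values in advance. By the summed level the lowest were fish 6 (650 FPKM) and fish 1 (723 FPKM), and fish 3 (1932 FPKM) lay within the stage II range of 1504 to 2541 FPKM. The filter, which asks for 1 FPKM in 6 libraries, kept 14 of the 24, since a unigene absent from the pituitary must pass it in every gonad. Without the filter 24 of 24 were called higher in UG, where 10.1% of all unigenes were. In UG replicate 4 only 12 of the 24 members reached 1 FPKM, and 19 of the 24 were at their lowest in that library.

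The testis list (60 unigenes of the male gonad) was expressed in the stage I gonad and the ovary list (397 unigenes of the female gonad) was at a low level there. The testis list had a median of 10.4, 20.5, 12.7, 1.39, 24.03 and 4.14 FPKM in the gonads of fish 1 to 6, against 0.0890 to 0.232 FPKM in the pituitaries, 27.6 to 30.5 FPKM in MG and 0.0895 to 0.741 FPKM in FG. The filter kept 38 of the 60, and without it 55 of 60 were called higher in UG, where 10.1% of all unigenes were. The ovary list had a median of 0.620, 1.66, 0.914, 0.117, 1.00 and 0.312 FPKM in the gonads, 0.187 to 0.281 FPKM in the pituitaries, 1.23 to 2.15 FPKM in MG and 141 to 163 FPKM in FG. Some members were also listed at 10 FPKM or more in the female pituitary, 121 of the 397 in FP replicate 1, against 16 and 15 in FP replicates 2 and 3. The median of the gonad list was highest in FP replicate 1 too, at 1.25 FPKM against 0.139 and 0.265 FPKM. The origin of these values was not tested. Without the filter, 136 of 391 ovary members were called higher in UG and 26 higher in UP, where 10.1% and 28.9% of all unigenes were. By its median the testis list was lower in all 6 stage I gonads than in every stage II male gonad. The list was set by high levels in MG, so lower stage I values were favoured in advance. By its sum the testis list reached 5310 FPKM in fish 4, within the range of MG (4031 to 5538 FPKM). Of that sum, 2582 FPKM came from Unigene52431_All, which meets the rule of the list and ranged from 220 to 983 FPKM in MG. The sum in fish 4 thus rests in large part on a single unigene.

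The low median in the gonad of fish 4 did not extend to every testis unigene. In UG replicate 4 the testis list was at 5310 FPKM in sum, the highest of the 6 gonads (2729 to 3382 FPKM in the others), while 34 of the 60 members were at their lowest there and 10 at their highest. Unigene52431_All gave 2582 FPKM of the sum in that library, and 644 to 1813 FPKM in the other gonads. The gonad of fish 6 had the lowest sum, with 13 members at their lowest there and 2 at their highest. No stage I gonad approached the level of the ovary list in the female gonad, which the rule of the list requires to be high. The sex of the fish was not assigned from these values.

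**Figure D3:**
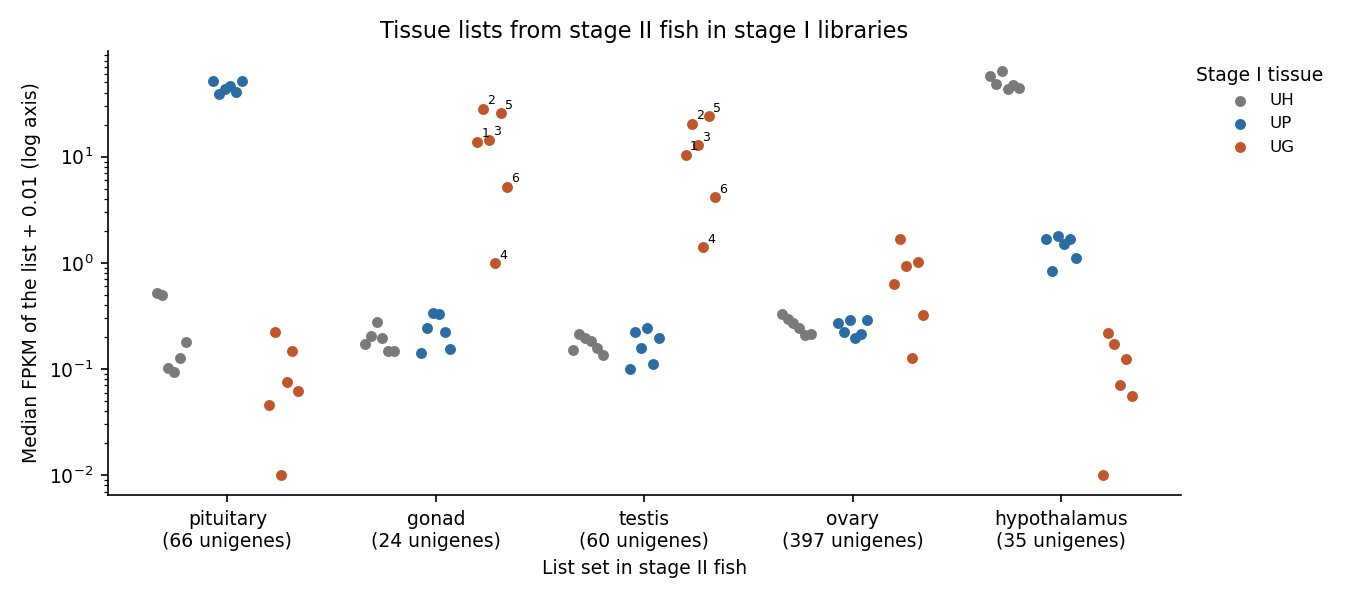
Median FPKM plus 0.01 (log axis) of 5 lists of unigenes, set by tissue in stage II fish, in each hypothalamus (UH, grey), pituitary (UP, blue) and gonad (UG, orange) library of 6 stage I fish. Each point is a library, and numbers give the fish of the gonad libraries for the gonad and testis lists. The pituitary list lies between 38.6 and 51.9 FPKM in UP and under 1 FPKM elsewhere, and the gonad and testis lists spread from 0.981 to 28.2 and from 1.39 to 24.03 FPKM in UG with fish 4 the lowest.

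Because the stage II fish share no library with the stage I fish, the calls could be read in independent animals. In males 60.6% of all unigenes tested were called in either direction and in females 52.5%. Of the 8793 unigenes higher in the stage I gonad, 8504 were tested in males, and 6979 (82.1%) were called higher in the male gonad, where 41.8% of all unigenes tested were. Only 83 (0.976%) were called the other way. In females 5241 were tested, 1080 (20.6%) were called higher in the female gonad against 12.1% of all unigenes, and 1363 (26.0%) were called higher in the female pituitary against 40.3%. Scaling turned this order in females. With both comparisons scaled, 2846 of 8638 (32.9%) were called higher in the female gonad, against 21.7% of all unigenes, and 1410 (16.3%) higher in the female pituitary, against 31.3%. The unigenes higher in the stage I pituitary were called that way for 12407 of 24724 (50.2%) in males, against 18.8% of all unigenes, and for 8851 of 13974 (63.3%) in females, against 40.3%. Called the other way were 1812 (7.33%) in males, against 41.8% of all unigenes, and 413 (2.96%) in females, against 12.1%. Male and female values rest on different numbers of libraries and of unigenes tested, and their difference was not tested. The paper describes marked differences among the female replicates, most of all in the hypothalamus, and gives different families as a possible reason. By its totals of reads and nucleotides, read length also differed among the female fish. The part of either in the female values was not tested.

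For the largest fold changes the males repeated the direction throughout. All 50 unigenes with a stage I log2 fold change of 5 or more and all 153 with one of -5 or less were called in the same direction in males. The shares of all unigenes tested in males were 41.8% higher in the gonad and 18.8% higher in the pituitary. In females only 20 of the 50 were tested, and 14 were called higher in the gonad and 2 higher in the pituitary. Of the 153, 140 were tested in females, and 139 were called higher in the pituitary and 0 higher in the gonad. There 12.1% of all unigenes tested were higher in the gonad and 40.3% higher in the pituitary. The 50 gonad unigenes had a median level of 91.6 FPKM in UG, 24.1 FPKM in MG and 2.26 FPKM in FG, and 0.149 FPKM in UP. The 153 pituitary unigenes had a median of 82.4 FPKM in UP, 72.9 FPKM in MP and 49.9 FPKM in FP, and 0.149 FPKM in UG. The size of the pituitary to gonad difference itself differed between stage I fish and males for 33933 of 96199 unigenes (35.3%) by the limma interaction at an adjusted p under 0.05. This fit used FPKM as given and was not repeated after scaling. Scaling moved the shares called higher in the gonad from 11.3% to 17.1% in stage I and from 41.8% to 29.1% in males. For the pituitary they moved from 34.3% to 24.9% and from 18.8% to 27.7%. The part of scale in the count was not tested. Stage and age differ together between these fish and cannot be told apart.

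**Figure D4:**
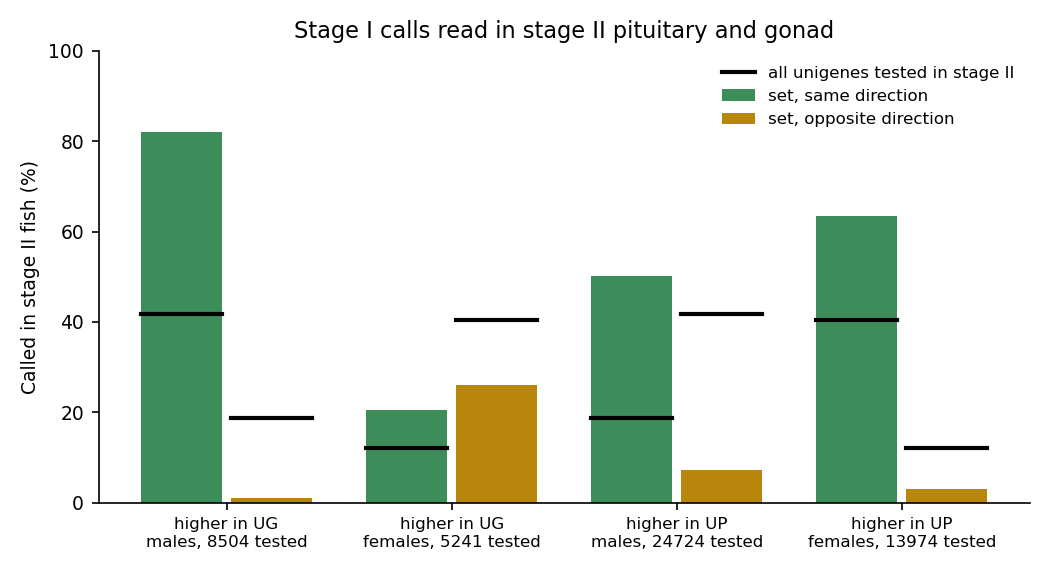
Percentage of the unigenes called higher in UG or higher in UP in stage I that were called in the same (green) or opposite (gold) direction between pituitary and gonad of stage II males and females. Black lines give the percentage of all unigenes tested in that comparison that were called in the direction of the bar. For unigenes higher in UG the green bar is 82.1% in males, against 41.8% of all unigenes, and 20.6% in females, against 12.1%.

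Contigs of the same cluster sometimes went opposite ways. Such contigs are similar sequences and can be isoforms, gene copies of a polyploid genome or fragments of an assembly, which the identifiers do not tell apart, and reads can be shared out between them uncertainly. Of 11454 clusters with at least 2 tested contigs, 1755 had contigs called higher in the gonad alone, 4879 had contigs called higher in the pituitary alone, 4539 had no called contig and 281 (2.45%) had contigs called in both directions. Only a cluster with at least 2 called contigs can hold both directions, and the 281 were 6.41% of the 4385 such clusters. After scaling 298 clusters had contigs called in both directions, of which 204 were the same. In 20 pairs both contigs had a mean of at least 10 FPKM in their higher tissue and no overlap between the tissues. In 9 of these 20 the more abundant contig of the pair was a different one in every gonad than in every pituitary. In males 13 of the 20 pairs had both contigs called as in stage I and 0 had a contig called the other way. In females 0 pairs had both called so and 6 had a contig called the other way. The contig higher in UP was called the same way in 18 pairs in males and 14 in females. For the contig higher in UG these counts were 14 and 0. Over all unigenes tested in males, 41.8% were called higher in the gonad and 18.8% higher in the pituitary. In females these shares were 12.1% and 40.3%. The 20 pairs were chosen by their stage I calls. A contig not tested in females counts as not called, such as CL4689.Contig3_All, listed at 0 in every female library.

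Ranked by the smaller of its 2 absolute fold changes, the pair in cluster CL4689 came first among the 20. CL4689.Contig1_All stood at 64.1, 63.1, 80.5, 61.2, 61.9 and 74.7 FPKM in the pituitaries of fish 1 to 6 and at 1.82, 2.75, 8.42, 5.56, 9.41 and 17.2 FPKM in the gonads. CL4689.Contig3_All was listed at 0 in 5 pituitaries and at 0.242 FPKM in that of fish 1, and stood at 10.9, 13.7, 13.96, 5.86, 14.2 and 8.42 FPKM in the gonads. The first contig made up nearly all of the pair in every pituitary, and the second took 32.9% to 85.7% of the summed FPKM of the pair in the gonads, with the lowest share in fish 6. The log2 fold changes were -3.27 (SE 0.36, limma adjusted p = 2.18e-06) and 3.50 (SE 0.22, limma adjusted p = 5.28e-09), and with the fish as a block the adjusted p-values were 6.80e-06 and 5.57e-07. CL4689.Contig3_All was listed at 0 in every female library of the 3 tissues and stood at 3.48 ± 1.12 FPKM in MG (SD, n = 6). The log2 fold changes in males were 2.01 for CL4689.Contig3_All and -3.36 for CL4689.Contig1_All.

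**Figure D5:**
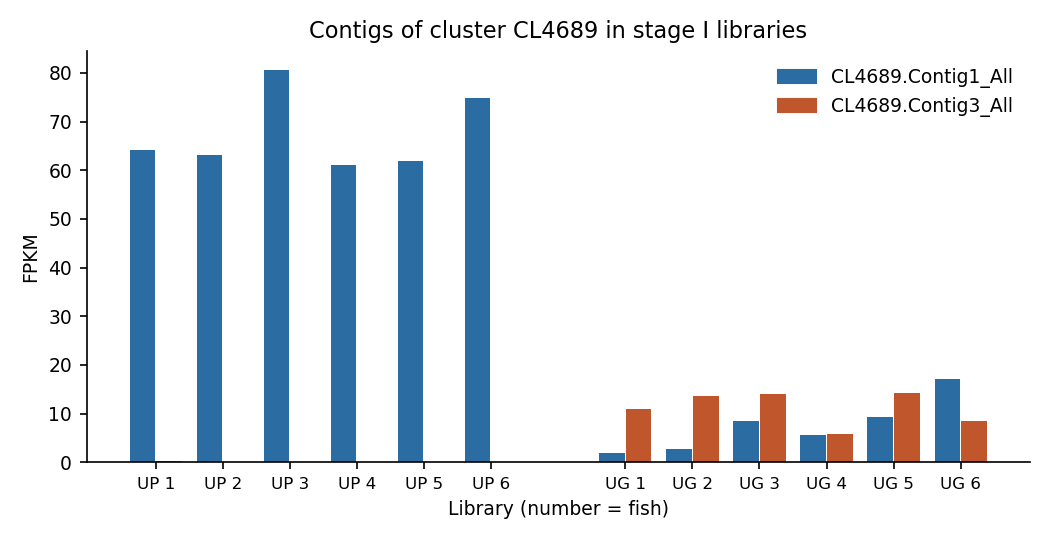
FPKM of the contigs CL4689.Contig1_All (blue) and CL4689.Contig3_All (orange) in each pituitary (UP 1 to 6, left) and gonad (UG 1 to 6, right) library of the stage I fish. Bars are single values with no error. The blue bars stand at 61.2 to 80.5 FPKM in the pituitaries, where the orange ones are at or near 0, and in the gonads the orange bar is the higher one in fish 1 to 5.

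The fish left only a weak mark that was shared by both tissues. The deviations of a pituitary library from its group mean correlated with those of the gonad of the same fish at r = 0.140, 0.203, 0.227, 0.272, 0.0265 and 0.133 across unigenes in fish 1 to 6. The median was 0.172, against -0.0407 over the 30 combinations of different fish, of which the highest was 0.231. For fish 2, 3 and 4 the own gonad was the best match of the pituitary and the own pituitary the best match of the gonad, and for fish 1, 5 and 6 neither held. Deviations from a group mean sum to 0 within each tissue, so higher values for the own fish lower those for other fish by construction. These correlations are across unigenes, which are not independent replicates.

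The study's sequencing statistics list the gonad libraries of fish 1 to 4 with a higher read quality and a higher GC content than those of fish 5 and 6, so the comparison was also made within each set of fish. In fish 1 to 4 the gonad libraries also exceed the pituitary libraries in both, which cannot be told apart from the tissue there, and in fish 5 and 6 they do not. In fish 1 to 4 alone, 7004 unigenes were higher in the gonad (8.88% of those tested) and 22747 higher in the pituitary (28.8%), and in fish 5 and 6 alone there were 3930 (4.78%) and 11138 (13.6%). Among unigenes tested in both sets, 2478 of the 3349 called higher in the gonad in fish 5 and 6 (74.0%) were called so in fish 1 to 4, and 18 were called the other way. For the pituitary 8949 of 9996 (89.5%) were called so in both, and 0 the other way. As shares of the calls of fish 1 to 4, these make up 37.8% for the gonad and 40.5% for the pituitary.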

How the data were processed

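Paired-end libraries were made from poly(A) RNA of each tissue. The authors filtered reads with SOAPnuke, assembled unigenes with Trinity and TGICL, mapped reads with SOAP2 and estimated FPKM with RSEM. In the deposited table, FPKM is given for 121952 unigenes (64643 contigs of clusters and 57309 single unigenes) and no read counts per unigene. The relative depth used here was read from values under 0.15 FPKM. The study also lists the clean reads of each library, which among the 12 libraries were fewest in the gonad of fish 1. All 45 sample columns were mapped and 0 were left unmapped. The libraries of 1 male fish whose hypothalamus and pituitary labels conflict (2 libraries) were left out. No unigene identifier matched (0) the 78555 rows of a RefSeq gene table of the species, assembly CSRI_AciSin_1.0, so neither names nor sequences are given.

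The UP and UG libraries were fitted with limma (version 3.58.1, R 4.3.3) on the log2(FPKM + 1) scale, using lmFit and a trended eBayes. Unigenes reaching 1 FPKM in at least 6 of the 12 libraries were tested, with Benjamini-Hochberg adjustment over all unigenes tested and a threshold of 0.05. Fold changes are UG minus UP on this scale, which understates changes of low unigenes. The paired fit added the fish as a block. The pairing comes from the sample codes alone, in which both tissues of a fish share a number. The correlation of deviations was over 0.1 in 5 of 6 fish, but it reached 0.231 between different fish. Only 3 of 6 fish were their own best match. Single values per library were compared with exact permutation tests over 924 splits and exact sign permutations over 64 signs. The interaction with stage II males was fitted over UP, UG, MP and MG, without scaling. The NOISeq rule of the study (probability of 0.8 or more, zeros set to 0.5) was written anew. The limma and NOISeq steps were tested on simulated data.

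Named unigenes were those with the highest and the lowest log2 fold change among called unigenes whose higher group averaged at least 10 FPKM and whose 12 libraries did not overlap between tissues, and the pair of oppositely called contigs of 1 cluster that, under the same conditions, had the largest value of the smaller absolute fold change. The comparison, the lists and the rule were chosen with earlier results of these data known. Alternatives were another pseudocount, no filter, median-of-ratios scaling, the block, a minimum fold change, sets of fish, left-out libraries and the NOISeq rule. Tables and plots were made in Python 3.11.15 with pandas 2.3.3, NumPy 2.4.6, Matplotlib 3.10.9 and Numba 0.67.0.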

Additional observations from a re-analysis of the deposited data

Results flagged for a closer look

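Among 38 sets of 6 values checked for a sample far from the others, 4 held one. Chance gives about 1 in 20 for independent sets, which these are not, since they share libraries. The relative depth of UG replicate 1 was 0.807, below the other 5 gonads. UP replicate 6 had 9796 unigenes listed at 0, fewer than the other 5 pituitaries. CL4689.Contig3_All was at 0.242 FPKM in UP replicate 1 and listed at 0 in the other 5 pituitaries. With 5 values at 0 any other value is flagged, so that flag was fixed in advance. Unigene9682_All was at 1.99 FPKM in UG replicate 2, above the other 5 gonads.

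For 3 of the 4 named unigenes the pituitary to gonad difference differed between stage I fish and stage II males by the limma interaction. The unigenes were named for extreme stage I fold changes, so a larger difference in stage I was favoured in advance and these p-values support nothing further. The values, as (UG minus UP) minus (MG minus MP) on the log2 scale, were 2.28 for Unigene52431_All (adjusted p = 0.00188), -3.14 for Unigene9682_All (adjusted p = 0.0117) and 1.49 for CL4689.Contig3_All (adjusted p = 0.000812).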

How the results depend on the processing

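The count of 35491 called unigenes became 34004 with a pseudocount of 0.1, 46460 of 118914 without a filter, 32688 with median-of-ratios scaling, 36760 with the fish as a block and 34238 with the block and the scaling together. Larger moves came from a minimum log2 fold change of 1 (22719, 5657 higher in UG and 17062 higher in UP), from fish 5 and 6 only (15068, 3930 and 11138) and from the NOISeq rule (13538, 4648 and 8890). Unigenes higher in UG rose to 13328 with scaling and to 14155 with the block and scaling. Leaving out each library in turn gave 33131 to 38231 calls, 8123 to 10169 of them higher in UG and 24543 to 29144 higher in UP. Without UG replicates 4 and 6, chosen after seeing the data, 39354 were called (11564 and 27790), and without fish 4 and 6 in both tissues 30453 (9356 and 21097). The clusters with contigs called in both directions numbered 174 in fish 1 to 4, 40 in fish 5 and 6, and 234 to 318 with a library left out. The 4 named unigenes kept their direction, which the rule for naming them favours, and stayed under 0.05 in all 76 combinations of a named unigene and an alternative fit. These include the block but not the fits without a filter or with the block and scaling together. Many of the fits share most of their libraries. The block changed no other call by over 1.5 times. UG minus UP in expressed unigenes was -12504 at 1 FPKM and 48.5 at 100 FPKM, and the difference in the share of the 10 highest unigenes (2.41 percentage points) did not pass the test. Of the unigenes higher in UG, 20.6% were called so in females (12.1% of all unigenes), 32.9% with both comparisons scaled and 32.2% with the stage II comparison alone scaled (21.7% of all). In males, with both scaled, 65.7% were called so for the gonad and 74.8% for the pituitary (29.1% and 27.7% of all). Of the shares of the tissue lists called in each direction, those of the ovary list higher in UP (16.2%, and 6.65% without a filter) and of the hypothalamus list higher in UG (7.14%, and 0% at 20 times the highest other library) moved by over 1.5 times. The others did not at 5 or 20 times, without a filter or without UG replicate 4. The table holds no counts, so no counting error can be given for low values.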
